A study of Mus musculus with 6 samples.

Results

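Matrix proteases and their inhibitors were examined in the uteri of intact female mice aged 2 weeks, as 62 genes of 16813 measured. They were taken by symbol: the matrix metalloproteases (Mmp), the ADAM proteins (a disintegrin and metalloprotease), the ADAMTS proteases, the ADAMTS-like proteins and the tissue inhibitors of metalloproteases (Timp). Of 41420 probe sets on the Affymetrix array, 107 carried exactly 1 such symbol, and each gene was represented by its brightest probe set. The study hybridised 3 arrays of the genotype labelled Arid1a d/d and 3 of the genotype labelled Arid1a f/f. The product of Arid1a binds DNA as part of SWI/SNF, a complex that remodels chromatin, and in the usual notation d stands for a deleted allele and f for a floxed one. No treatment was given, both groups shared tissue, sex and age, and the labels name neither the Cre driver nor the deleted part of the gene. The series' title concerns endometrial gland development, and the question put to the arrays is how uterine RNA levels differed between d/d and f/f.

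Matrix metalloproteases are zinc enzymes that are made as inactive precursors and, once cleaved, cut collagens, laminins and other matrix proteins. Membrane-bound members such as Mmp14 activate Mmp2 at the cell surface with Timp2 as a bridge, ADAM proteases release the outer parts of membrane proteins, and ADAMTS proteases trim procollagens and cut proteoglycans such as versican. The Timp proteins occupy the active site of these enzymes. In the uterus the family is known for the remodelling of stroma and basement membrane as epithelium grows into it.

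All values are log2 of the deposited intensity. Genotypes are compared within a probe set. Between genes, levels are set only against 1 common mark and are not otherwise compared. The median over all probe sets, 2.69, serves as a mark of dimness: a gene whose mean in both genotypes lay under it is called dim, since background limits the differences that it can show. Of the 62 genes, 34 lay above this level in at least 1 genotype and 28 were dim. All 62 were tested, with no filter on low values.

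The data had 1 feature that touches the results. On the first principal component of all probe sets, which held 42.6% of the variance, d/d 1 lay at -11.9, d/d 2 at 37.2 and d/d 3 at 28.8, against -29.4, -17.7 and -6.95 in f/f 1, 2 and 3. Array d/d 1 thus lay among the f/f arrays on this axis. Its Arid1a probe set did not, with 6.98, 7.06 and 7.04 in d/d 1, 2 and 3 against 7.54, 7.58 and 7.71 in f/f 1, 2 and 3. Whether that probe set lies in the deleted part is not given in the sources used here. Median intensities on the linear scale were 6.34 to 6.59.

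The secreted enzymes were mostly dim at this age, and a row of neighbouring genes accounted for much of this. Mmp12, Mmp1b, Mmp1a, Mmp10, Mmp8, Mmp20 and Mmp7 stand in 1 cluster on chromosome 9, where each has another Mmp gene next to it in the RefSeq annotation of GRCm38.p6. All 7 were dim in both genotypes. RefSeq promoter sequences were found for 35 of the 62 genes. The stretches of 120 bases before the annotated start are shown for the 7 genes of the cluster and for 5 genes outside it whose levels are described further on, because the sets differ in their promoter letters. Where a gene has several annotated starts, the one farthest upstream was used. Capitals mark the motifs searched on both strands: TGANTCA, bound by AP-1 factors, TATAAA of the TATA box, GGGCGG of the GC box and CCAAT. Matches of GGGCGG and CCAAT on the other strand read CCGCCC and ATTGG.
Mmp12 (chr9:7344277-7344396, plus strand): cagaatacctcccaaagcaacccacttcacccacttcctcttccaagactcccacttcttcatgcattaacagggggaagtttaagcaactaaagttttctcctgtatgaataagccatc
Mmp1b (chr9:7388027-7388146, minus strand): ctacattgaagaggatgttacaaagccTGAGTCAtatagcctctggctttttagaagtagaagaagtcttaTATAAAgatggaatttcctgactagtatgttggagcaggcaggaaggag
Mmp1a (chr9:7464021-7464140, plus strand): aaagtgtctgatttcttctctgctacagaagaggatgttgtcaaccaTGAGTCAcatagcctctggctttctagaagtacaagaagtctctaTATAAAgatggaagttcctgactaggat
Mmp10 (chr9:7502222-7502341, plus strand): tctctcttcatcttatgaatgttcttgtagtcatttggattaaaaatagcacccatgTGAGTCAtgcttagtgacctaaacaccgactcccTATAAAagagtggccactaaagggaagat
Mmp8 (chr9:7558309-7558428, plus strand): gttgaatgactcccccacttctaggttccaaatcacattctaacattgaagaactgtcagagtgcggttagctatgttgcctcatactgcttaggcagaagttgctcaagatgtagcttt
Mmp20 (chr9:7628111-7628230, plus strand): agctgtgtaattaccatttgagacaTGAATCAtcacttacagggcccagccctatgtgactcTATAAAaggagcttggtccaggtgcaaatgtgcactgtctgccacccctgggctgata
Mmp7 (chr9:7691970-7692089, plus strand): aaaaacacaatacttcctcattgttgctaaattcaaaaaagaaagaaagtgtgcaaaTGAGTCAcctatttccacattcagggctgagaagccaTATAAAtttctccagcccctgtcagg
Mmp14 (chr14:54431478-54431597, plus strand): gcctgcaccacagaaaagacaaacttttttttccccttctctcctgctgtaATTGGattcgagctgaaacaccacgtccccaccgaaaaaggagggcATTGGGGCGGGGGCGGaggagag
Timp2 (chr11:118355412-118355531, minus strand): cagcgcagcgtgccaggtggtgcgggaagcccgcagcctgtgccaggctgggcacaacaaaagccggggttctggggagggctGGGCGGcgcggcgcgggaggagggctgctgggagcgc
Timp3 (chr10:86300292-86300411, plus strand): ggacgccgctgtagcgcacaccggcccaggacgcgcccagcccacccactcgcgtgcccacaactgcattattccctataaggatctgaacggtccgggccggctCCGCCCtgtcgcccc
Adamts9 (chr6:92943535-92943654, minus strand): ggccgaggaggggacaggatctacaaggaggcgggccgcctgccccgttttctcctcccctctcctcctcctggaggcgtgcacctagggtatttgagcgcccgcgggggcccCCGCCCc
Adamts3 (chr5:89883335-89883454, minus strand): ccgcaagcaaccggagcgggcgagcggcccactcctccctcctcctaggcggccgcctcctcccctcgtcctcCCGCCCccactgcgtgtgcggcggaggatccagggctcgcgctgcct

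In the stretches shown, AP-1 and TATA letters occurred together in Mmp1b, Mmp1a, Mmp10, Mmp20 and Mmp7. Neither occurred in the 5 genes outside the cluster, each of which held at least 1 GC box. Those 5 were picked for display, so this contrast is no test of the cluster against the other members. Over whole promoter windows of 300 bases (250 before and 50 after the start), TGANTCA was found in 8 of 37 windows of member genes (21.6%) and in 7.81% of all 32851 windows. TATAAA was found in 29.7% of the member windows and 13.6% of all, GGGCGG in 45.9% and 35.7%, and CCAAT in 35.1% and 37.4%. Adamts1 and Adamtsl2, outside the cluster and above the mark, were among the genes with TATAAA and among those with GGGCGG. The 8 genes with TGANTCA were Mmp1a, Mmp1b, Mmp7, Mmp10, Mmp12, Mmp20, Adam1b and Adam25, and all 8 were dim, as were 18 of all 35 members with a promoter. Of the 17 genes with GGGCGG 2 were dim, of the 11 with TATAAA 9 and of the 12 with CCAAT 7. These matches describe letters and do not show binding.

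Across the cluster the group means ran between 1.41 and 2.51 in d/d uteri and between 1.49 and 2.42 in f/f uteri. The log2 differences lay between -0.16 and 0.09, and the smallest limma adjusted p was 0.628. Mmp7, matrilysin, an enzyme made by epithelial cells, stood at 2.23, 2.31 and 2.29 in d/d 1, 2 and 3 against 2.25, 2.68 and 2.35 in f/f 1, 2 and 3, and the groups overlapped. The remaining dim secreted enzyme was Mmp19, at 2.22 in d/d and 2.25 in f/f. No difference was detectable at these levels.

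Mmp2, gelatinase A of stromal cells, was bright in both genotypes. It stood at 9.08, 8.94 and 9.17 in d/d 1, 2 and 3, against 9.40, 9.40 and 9.72 in f/f 1, 2 and 3. The groups did not overlap. The log2 difference of -0.45 ± 0.12 (SE) did not pass over all genes (limma adjusted p = 0.155). Mmp9, gelatinase B, known from leukocytes, lay near the mark of dimness at 3.30, 2.77 and 2.71 in d/d 1, 2 and 3, against 2.89, 2.46 and 2.76 in f/f 1, 2 and 3. Its groups overlapped, and d/d 1 gave the highest value (log2 difference 0.22 ± 0.18 SE; limma adjusted p = 0.722). The Mmp9 difference was 0.037 once d/d 1 was left out.

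The membrane-bound enzymes Mmp14, Mmp16, Mmp17 and Mmp24 all lay above the mark, and none passed (0 of 4; by limma, 0 of 4 also had an unadjusted p under 0.05, a level that 12.2% of all genes reached). Mmp14, the activator of Mmp2, stood at 8.06, 8.10 and 8.25 in d/d 1, 2 and 3, against 8.32, 8.22 and 8.41 in f/f 1, 2 and 3. The groups overlapped only through d/d 3 and f/f 2. Its log2 difference was -0.18, with a 95% confidence interval of -0.40 to 0.04. A dimmer Mmp14 probe set gave 0.0046. Mmp17, a lipid-anchored member, differed by -0.26, Mmp16 by 0.16 and Mmp24 by 0.19. Mmp16 has 4 probe sets, and its 3 above the mark gave 0.16, 0.32 and -0.16, so they did not share a direction.

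**Figure D1:**
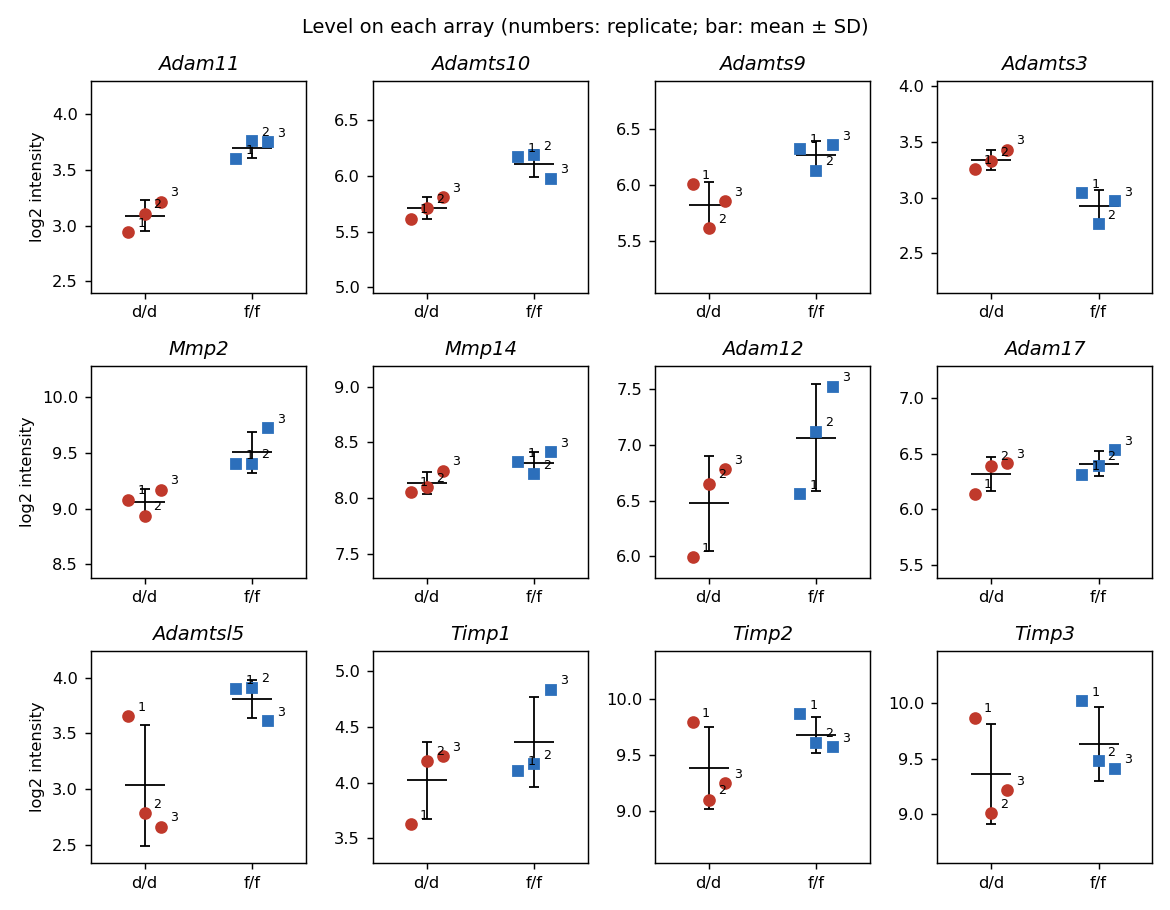
Log2 intensity of 12 protease and inhibitor genes on each array, with d/d arrays as circles left of f/f arrays as squares, replicate numbers beside the points and bars for mean ± SD (n = 3). The panels share a span but not a position on the axis; the d/d points of Adam11, Adamts10, Adamts9 and Mmp2 all lie below the f/f points, those of Adamts3 all above, and in Timp2, Timp3 and Adamtsl5 the point of d/d 1 lies apart from d/d 2 and d/d 3.

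Adam11 was the 1 gene of the 62 that passed. Among all 16813 genes, 1.14% passed in either direction, 0.63% higher and 0.512% lower, so a count of 1 is close to the background share. Adam11 encodes an ADAM protein without a working active site that is known from neurons. It stood at 2.94, 3.11 and 3.22 in d/d 1, 2 and 3, against 3.60, 3.76 and 3.75 in f/f 1, 2 and 3. The groups did not overlap. The mean was 3.09 ± 0.14 in d/d and 3.70 ± 0.09 in f/f (SD, n = 3 each), and the log2 difference was -0.61 ± 0.10 (SE), a change of -34.6% in d/d (limma adjusted p = 0.0437). Its other probe set was dim and gave -0.08. The call held without d/d 1 (adjusted p = 0.0294) and was lost without any 1 of d/d 2, d/d 3, f/f 1, f/f 2 or f/f 3 (adjusted p of 0.0810 to 0.174), over all probe sets (0.0518, where 0.524% of probe sets passed) and with the mean of both probe sets (0.139). Adam22, a relative that also lacks the active site, differed by -0.19 and Adam23, which was dim, by 0.05.

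The ADAM proteases outside the testis and epididymis group (Adam10, Adam12, Adam15, Adam17, Adam28 and Adam33) were lower by measurement in 6 of 6, with a median log2 difference of -0.22. None passed (0 of 6 by limma, 2 of 6 at an unadjusted p under 0.05, against 12.2% of all genes). Adam10 and Adam17 are the main enzymes that release growth factors and receptors from the cell surface. Adam10 averaged 8.56 ± 0.09 in d/d and 8.64 ± 0.08 in f/f (SD, n = 3 each), with a 95% interval of the difference of -0.29 to 0.13. Adam17 averaged 6.31 ± 0.15 in d/d and 6.41 ± 0.11 in f/f, with an interval of -0.35 to 0.16. Differences of this size and sign were within the spread between arrays. Adam15, of endothelium and epithelium, stood at 6.09, 5.96 and 6.02 in d/d 1, 2 and 3 and at 6.30, 6.31 and 6.22 in f/f 1, 2 and 3. Its groups did not overlap (log2 difference -0.25 ± 0.08 SE; limma adjusted p = 0.256), and the probe set has the suffix _x_at, given to probes that may match other transcripts. A dimmer Adam15 probe set without that suffix gave -0.23, also without overlap (limma adjusted p = 0.484 over all probe sets). A dim Adam15 probe set gave -0.12 with groups that overlapped.

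Adam12, a protease of growing mesenchyme and muscle, spread widely. It stood at 5.99, 6.65 and 6.78 in d/d 1, 2 and 3, against 6.56, 7.12 and 7.52 in f/f 1, 2 and 3. In both genotypes array 1 was the lowest and array 3 the highest, and the groups overlapped. The log2 difference was -0.59 ± 0.28 (SE; limma adjusted p = 0.467), and its dimmer probe set gave -0.44. With the replicate number as a block Adam12 passed (limma adjusted p = 0.0310), although whether the numbers pair the arrays was not settled. The difference was -0.35 without d/d 1 and -0.36 without f/f 3. Adam28, known from lymphocytes, stood at 2.47, 2.28 and 2.19 in d/d 1, 2 and 3, all under the mark, against 2.87, 3.14 and 2.60 in f/f 1, 2 and 3. These groups did not overlap (log2 difference -0.56 ± 0.15 SE; limma adjusted p = 0.158), while the other Adam28 probe set, which was dim, gave 0.15 with overlap. Adam33 differed by -0.19, also with groups that did not overlap.

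The ADAM genes known mainly from testis and epididymis formed the largest dim group, with 15 of 16 under the mark in both genotypes. Their differences ran from -0.32 to 0.11 and none passed (0 of 16 by limma, 0 of 16 at an unadjusted p under 0.05). The exception to dimness was Adam4, at 3.77 in d/d and 3.68 in f/f, with a log2 difference of 0.10. In the RefSeq annotation Adam4 overlaps the protein-coding genes Cox16 and Gm20498. Which of these transcripts its probe set reads was not tested.

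Of the 14 ADAMTS proteases, 11 lay above the mark and none passed (0 of 14 by limma, 5 of 14 at an unadjusted p under 0.05, of which 4 were lower and 1 higher, where 6.88% of all genes were lower and 5.29% higher at that level). Adamts10, which is tied to fibrillin microfibrils, stood at 5.62, 5.71 and 5.81 in d/d 1, 2 and 3, against 6.17, 6.19 and 5.97 in f/f 1, 2 and 3. Its groups did not overlap, with a log2 difference of -0.40 ± 0.10 (SE; limma adjusted p = 0.128). The other Adamts10 probe set, which was dim, gave 0.01.

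The enzymes that cut versican and aggrecan included Adamts1, Adamts4, Adamts5, Adamts9 and Adamts15, each lower in d/d by measurement. These 5 are a chosen subset. Of all 14 ADAMTS proteases 10 were below 0, against 53.4% of all genes. Adamts9 stood at 6.01, 5.61 and 5.85 in d/d 1, 2 and 3, against 6.32, 6.13 and 6.36 in f/f 1, 2 and 3, and the groups did not overlap. Its log2 difference was -0.45 ± 0.12 (SE; limma adjusted p = 0.173). Without d/d 1 it was -0.54 with an adjusted p of 0.0484. Dim Adamts9 probe sets gave -0.03 and -0.28 with groups that overlapped. The mean of its probe sets gave -0.25 (limma adjusted p = 0.329). Adamts5 had non-overlapping groups with a difference of -0.23, while its other probe sets above the mark gave -0.09 and 0.07. Adamts4 stood at 3.52, 4.10 and 4.12 in d/d 1, 2 and 3, against 4.14, 4.33 and 4.43 in f/f 1, 2 and 3 (log2 difference -0.38 ± 0.17 SE; limma adjusted p = 0.434), and without d/d 1 its difference was -0.19. Both Adamts4 probe sets had groups that did not overlap, the dimmer with -0.40. Adamts1, an ovulation and matrix enzyme, overlapped between genotypes at -0.15 ± 0.11 (SE), and Adamts15 at -0.26 ± 0.21 (SE). Their shared substrate versican, Vcan, was higher in d/d by measurement at 0.69 ± 0.20 (SE; limma adjusted p = 0.195), with groups that did not overlap. Vcan has 8 probe sets, of which only the brightest is given. Any link between the RNA levels of these enzymes and of Vcan was not tested.

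Adamts3 went the other way. This procollagen propeptidase, which also has a part in processing the lymphatic growth factor Vegfc, stood at 3.25, 3.33 and 3.43 in d/d 1, 2 and 3, against 3.04, 2.76 and 2.97 in f/f 1, 2 and 3. It was the 1 gene of the 62 whose d/d arrays all lay above all f/f arrays. The log2 difference was 0.41 ± 0.10 (SE), a level 33.1% higher in d/d that did not pass (limma adjusted p = 0.132). A dimmer Adamts3 probe set gave -0.09. Adamts6, a relative of Adamts10, stood at 4.48, 4.59 and 4.62 in d/d 1, 2 and 3, against 4.54, 4.10 and 4.24 in f/f 1, 2 and 3. The groups overlapped through f/f 1 (0.27 ± 0.12 SE; limma adjusted p = 0.448). Adamts12 had non-overlapping groups at -0.34 ± 0.12 (SE), and Adamts7, which like Adamts12 cuts the cartilage protein Comp, overlapped at -0.29 ± 0.19 (SE). Adamts16 gave 0.05, a size below its SE of 0.12.

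**Figure D2:**
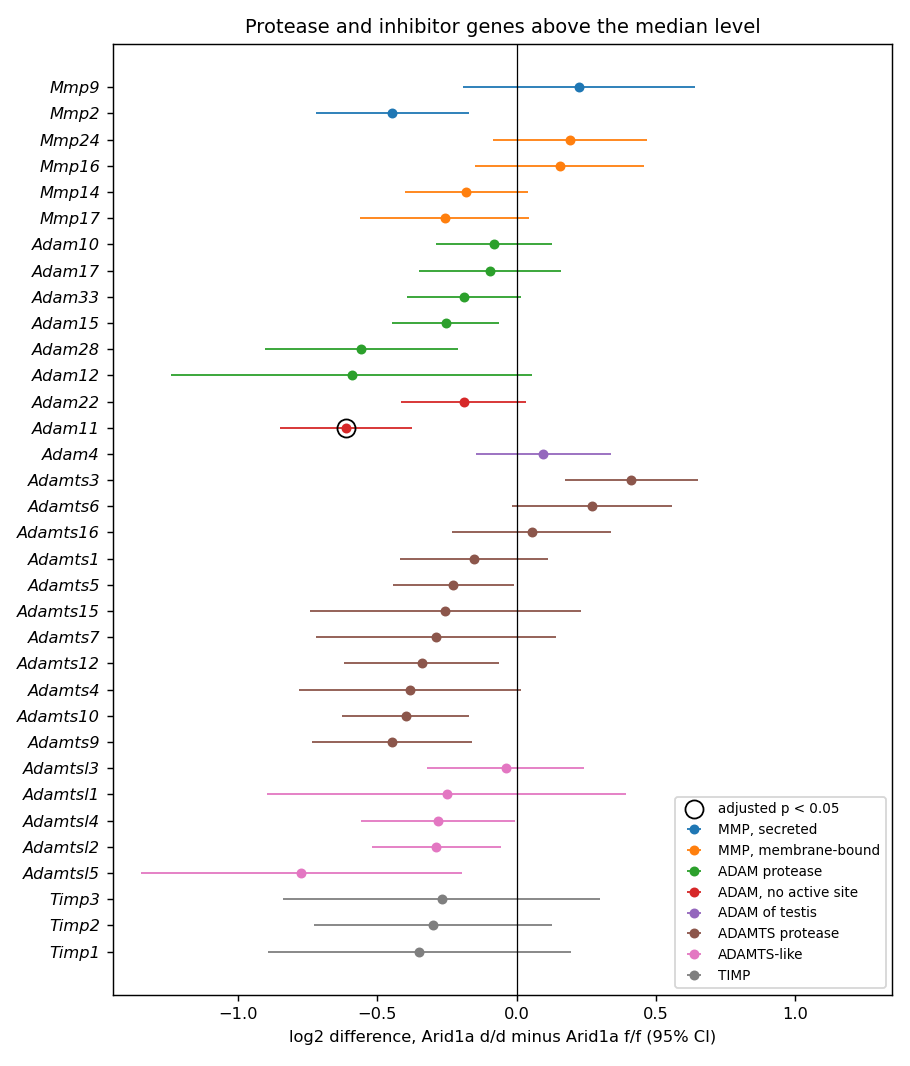
Log2 difference, d/d minus f/f, of the 34 genes that lay above the median level of 2.69 in at least 1 genotype, with 95% confidence intervals from limma (not adjusted for the number of genes) and colours for roles. The points run between Adamtsl5 at -0.77 and Adamts3 at 0.41, and 1, Adam11, is circled as past an adjusted p of 0.05.

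The ADAMTS-like proteins share the ancillary domains of ADAMTS enzymes but lack the protease, and several bind fibrillin microfibrils. All 5 lay above the mark and were lower in d/d by measurement (median log2 difference -0.28), and none passed (0 of 5 by limma, 3 of 5 at an unadjusted p under 0.05, all lower, against 6.88% of all genes). Adamtsl5 had the most negative difference of the 62 genes. It stood at 3.65, 2.78 and 2.66 in d/d 1, 2 and 3, against 3.90, 3.91 and 3.61 in f/f 1, 2 and 3. Arrays d/d 2 and d/d 3 lay below every f/f array, but d/d 1 lay within their range. The log2 difference was -0.77 ± 0.25 (SE; limma adjusted p = 0.251), and without d/d 1 it was -1.08 ± 0.13 with an adjusted p of 0.00437. A dim probe set gave -0.07. Adamtsl2, which binds the latent Tgfb-binding protein Ltbp1, had groups that did not overlap, with a difference of -0.29 ± 0.10 (SE). Adamtsl4 gave -0.28 and Adamtsl1 -0.25, with d/d 1 inside the f/f range for Adamtsl4 and above it for Adamtsl1. Leaving out d/d 1 gave -0.40 for Adamtsl4 and -0.57 for Adamtsl1 (limma adjusted p of 0.0669 and 0.118). Another Adamtsl1 probe set, at 4.90 in d/d and 5.44 in f/f, gave -0.54, and there d/d 1 lay inside the f/f range. Adamtsl3 gave -0.04.

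The inhibitors did not pass either (0 of 4 by limma, 0 of 4 at an unadjusted p under 0.05). Timp2, the partner of Mmp2 and Mmp14, stood at 9.79, 9.10 and 9.25 in d/d 1, 2 and 3, against 9.86, 9.61 and 9.57 in f/f 1, 2 and 3. Arrays d/d 2 and d/d 3 were lower than any f/f array and d/d 1 was among them. The log2 difference was -0.30 with a 95% interval of -0.73 to 0.13 (limma adjusted p = 0.606). Without d/d 1 it was -0.51 ± 0.12 (SE; limma adjusted p = 0.0613), and without d/d 2 it was -0.16. The other 4 Timp2 probe sets above the mark gave -0.23, -0.17, -0.16 and -0.11. In the probe set at -0.17 every d/d array, d/d 1 included, lay below every f/f array. Timp3, which is held in the matrix and also inhibits Adam17 and aggrecanases, ran alike, at 9.87, 9.01 and 9.22 in d/d 1, 2 and 3 against 10.02, 9.48 and 9.41 in f/f 1, 2 and 3. For both genes array 1 was the highest of its genotype. Timp3 gave -0.27 with an interval of -0.84 to 0.30, and its other probe set -0.39. Without 1 array the Timp3 difference ran between -0.52 (without d/d 1; limma adjusted p = 0.176) and -0.08 (without f/f 1).

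Timp1, an inducible inhibitor, varied among the arrays of both genotypes. It stood at 3.62, 4.19 and 4.24 in d/d 1, 2 and 3, against 4.10, 4.16 and 4.83 in f/f 1, 2 and 3. Array 1 was the lowest and array 3 the highest in both genotypes, and the groups overlapped (log2 difference -0.35 ± 0.23 SE; limma adjusted p = 0.645). The Timp1 difference was -0.15 without d/d 1 and -0.12 without f/f 3. Timp4 was dim at 2.53 in d/d and 2.64 in f/f. In the RefSeq annotation Timp1, Timp3 and Timp4 each overlap a synapsin gene: Syn1, Syn3 and Syn2. Syn2, whose product coats synaptic vesicles, stood at 2.37, 2.54 and 2.34 in d/d 1, 2 and 3, against 3.38, 3.42 and 3.05 in f/f 1, 2 and 3, and it fell with a log2 difference of -0.87 ± 0.12 (SE; adjusted p = 0.0234 by limma over all 6 arrays). Timp4 within it differed by -0.10 ± 0.09 (SE), and the difference between these genes was not tested. Syn1 and Syn3 were dim. Syn2 was singled out after its values were seen.

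The family as a whole leaned to lower values in d/d uteri, and dim members shared the lean. Of the 62 genes, 49 had a difference below 0 (79%), against 53.4% of all genes. The median log2 difference was -0.15, against -0.01 over all genes. Below 0 lay 27 of the 34 genes above the mark and 12 of the 16 ADAM genes of testis and epididymis. Of those 16, 15 were dim. Groups did not overlap for 16 of the 62 (25.8%), against 16.5% of all genes. Of these 16, 15 were lower and 1 was higher, where 9.42% of all genes were lower and 7.1% higher without overlap. Among the 15 lower genes, 11 lay above the mark and 4 were dim ADAM genes of testis and epididymis. An unadjusted limma p under 0.05 was reached by 12 (19.4%), 11 lower and 1 higher, against 12.2% of all genes (6.88% lower and 5.29% higher). These genes share the same 6 arrays, so the counts describe the arrays and carry no test. The mean log2 level of the 62 genes was 3.67, 3.60 and 3.70 in d/d 1, 2 and 3, against 3.78, 3.82 and 3.83 in f/f 1, 2 and 3. With each array left out in turn, 44 to 52 of the 62 lay below 0.

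**Figure D3:**
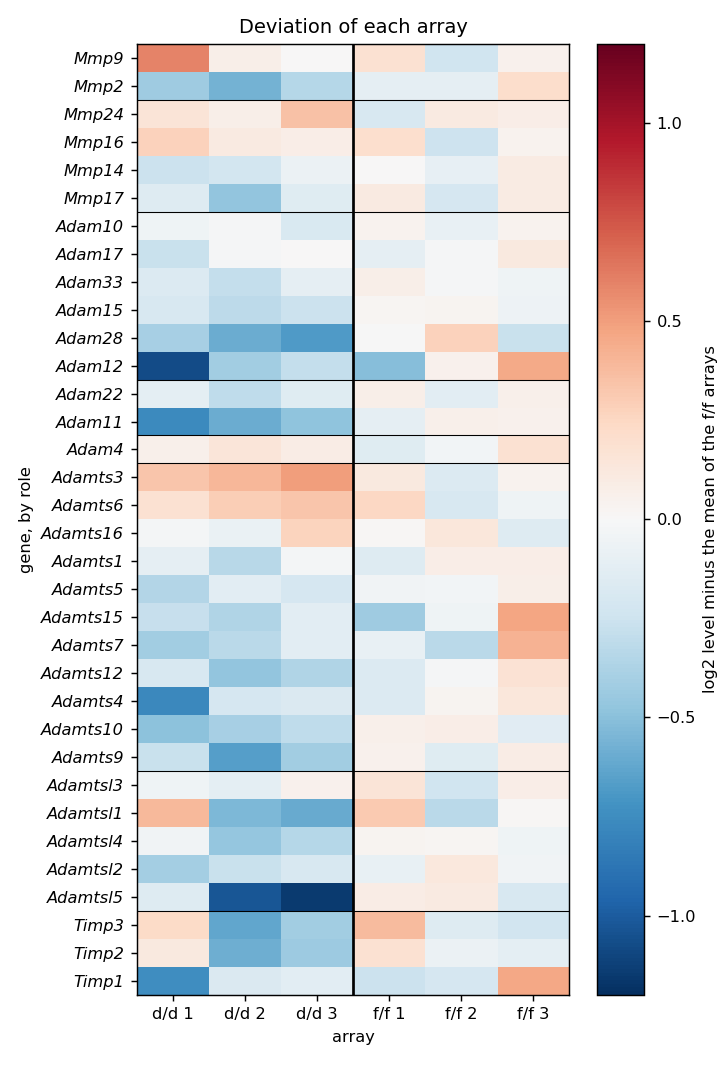
Deviation of each array from the mean of the 3 f/f arrays (log2) for the 34 genes above the median level, with d/d arrays left of f/f arrays and genes ordered by role. Blue is lower and red higher; Adam11 and Adamts10 are blue on all 3 d/d arrays and Adamts3 is red, whereas Timp2, Timp3 and Adamtsl1 are red on d/d 1 and f/f 1 and blue on d/d 2 and d/d 3.

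Array d/d 1 stood apart from d/d 2 and d/d 3 for part of the family. In 9 of the 62 genes (14.5%) d/d 2 and d/d 3 lay beyond all f/f arrays on 1 side while d/d 1 did not, against 18.8% of all genes. These were Timp2, Timp3, Adamtsl1, Adamtsl4, Adamtsl5, Adam22, Adamts6, Mmp8 and Mmp19. The members' share was below that of all genes. Without d/d 1, 3 of the 62 passed, all lower: Adam11, Adamts9 and Adamtsl5. Of all 16813 genes 821 did, so the members' share was close to that of all genes.

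Markers of several tissue components differed beside the family. In whole uteri, fewer cells of a type and less RNA per cell cannot be told apart. All 11 measured stroma markers were lower by measurement (median -0.31, 1 of 11 fell), with a mean log2 level of 9.47 to 9.79 in d/d and 9.89 to 10.04 in f/f. The gene that fell was Thy1, a surface glycoprotein of fibroblasts (-1.06 ± 0.13 SE; limma adjusted p = 0.0155). Hoxa11, a patterning factor of uterine stroma, differed by -0.42. All 7 endothelium markers were lower (median -0.63, 0 of 7 passed by limma and 5 of 7 had an unadjusted p under 0.05, all lower, against 6.88% of all genes), at 5.82 to 6.35 in d/d and 6.56 to 6.67 in f/f, with Emcn at -0.67 and Esam at -0.71. All 7 fat cell markers were lower with groups that did not overlap (7 of 7, against 9.42% of all genes; median -1.16, 0 of 7 passed and 6 of 7 had an unadjusted p under 0.05, against 6.88% lower among all genes), at 4.22 to 5.0 in d/d and 5.23 to 5.91 in f/f, with Retn at -1.46 and Adipoq at -1.59. Among these 3 lists the fat cell marker Lep was dim. Their part in the lower protease and inhibitor levels was not tested.

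Of 8 simple epithelium markers measured, 2 rose, Muc1, a surface mucin, at 1.03 ± 0.13 and Cdh1, the epithelial cadherin, at 1.00 ± 0.15 (SE; limma adjusted p of 0.0178 and 0.0314). The list's mean level was 8.08 to 8.22 in d/d and 7.54 to 7.75 in f/f, with a median difference of 0.61. Groups did not overlap for 5 of the 8, all higher, against 7.1% of all genes. Krt7 at 0.21, Epcam at 0.14 and Cldn3 at -0.18 had groups that overlapped. The Muc1 and Cdh1 calls were lost without any 1 of d/d 2, d/d 3, f/f 1, f/f 2 or f/f 3. The Thy1 call was lost without any 1 of d/d 2, d/d 3, f/f 2 or f/f 3. Without d/d 1, 17 of 54 measured markers passed, these 3 among them, where 821 of 16813 genes did. Smooth muscle markers were lower in 7 of 7 (median -0.21, 0 passed and 1 had an unadjusted p under 0.05), with Des at -0.46 and Smtn at -0.31. Of 9 macrophage and neutrophil markers 0 passed and 3 had an unadjusted p under 0.05. Among them Cd68 differed by 0.46 and S100a8, which was dim, by -0.50. Mesothelium markers had a median of 0.09 with 0 of 5 passed and 1 under an unadjusted p of 0.05. Lrrn4 differed by 0.28 and Wt1 by 0.09.

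**Figure D4:**
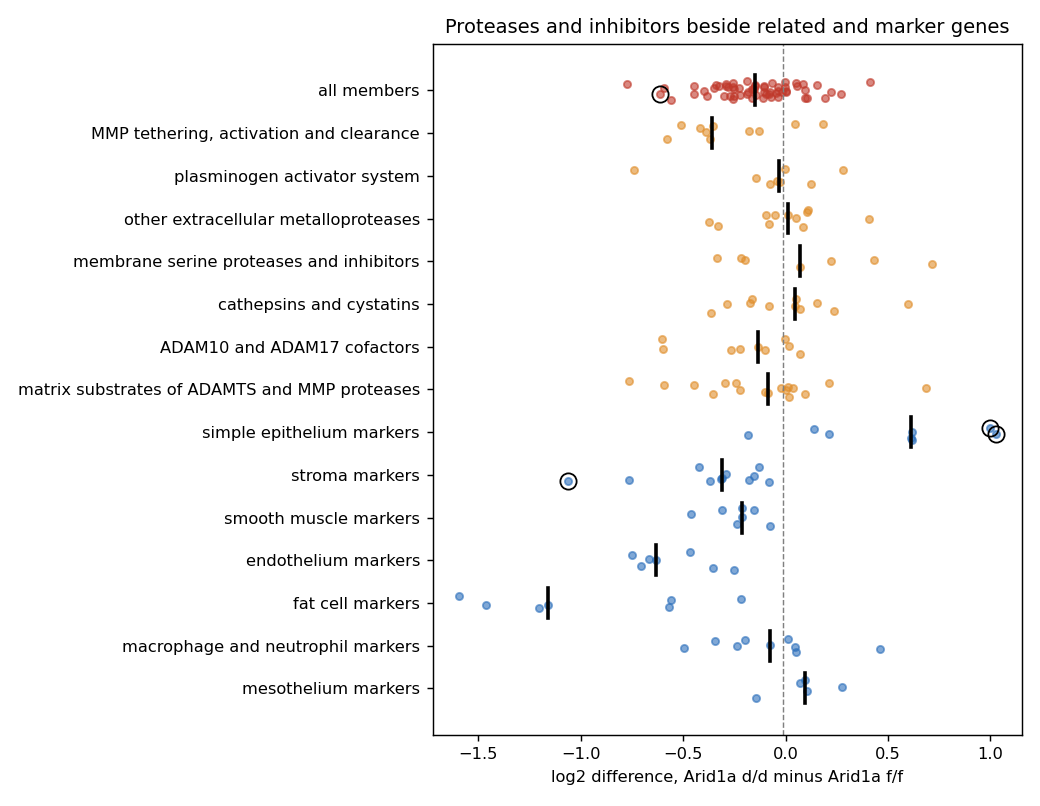
Log2 differences, d/d minus f/f, of the 62 proteases and inhibitors (top row), 7 lists of related genes and 7 lists of cell type markers, 1 point per gene with vertical jitter. Black bars are medians, the dashed line is the median of all genes (-0.01) and circles mark genes past an adjusted p of 0.05: Adam11, Muc1, Cdh1 and Thy1.

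The genes that work with the family were described by 7 lists holding 73 measured genes, of which 0 passed by limma and 21 had an unadjusted p under 0.05, a level that 12.2% of all genes reached. Without d/d 1, 8 of the 73 passed, where 821 of 16813 genes did: Reck, Lrp1, Tspan17, Tmprss4, Vcan, Dcn, Vtn and Vwf. The list of genes that hold, activate or clear metalloproteases was lower by measurement in 8 of 10 (median -0.36). Reck, a membrane-anchored inhibitor of metalloproteases, differed by -0.58, Lrp1, the endocytic receptor that removes proteases and Timp3, by -0.39 ± 0.11 and Cav1, of caveolae, by -0.42 ± 0.10 (SE; limma adjusted p of 0.190 for Lrp1 and 0.107 for Cav1). Groups did not overlap for 4 of these 10 genes, all lower, against 9.42% of all genes. Of 9 cofactors of Adam10 and Adam17, 7 were below 0 (median -0.14). The tetraspanins Tspan15 and Tspan17, which escort Adam10, stood at -0.60 each (limma adjusted p of 0.152 and 0.127), with groups that did not overlap.

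The matrix substrates did not move one way. Of 17 measured, 10 were below 0 (median -0.09), with versican higher by measurement and the small proteoglycans Dcn, also counted among the stroma markers, at -0.76 and Bgn at -0.45 ± 0.14 (SE; limma adjusted p = 0.253 for Bgn). Fibronectin, Fn1, gave -0.02. Of 8 genes of the plasminogen activator system, which activates several metalloproteases, 6 were below 0 (median -0.03), with vitronectin, Vtn, at -0.74 ± 0.21 (SE; limma adjusted p = 0.193) and the activator Plat at 0.28. Of 11 other extracellular metalloproteases 5 were below 0 (median 0.01), with Bmp1, a procollagen C-proteinase, at -0.33 and Ece1, which makes endothelin, at -0.38.

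Protease genes of other classes included members with higher values in d/d. Of 7 membrane serine proteases and inhibitors 3 were below 0 (median 0.07), and Tmprss4, an epithelial serine protease, stood at 0.71 ± 0.15 and Spint2, an inhibitor of such enzymes, at 0.43 ± 0.10 (SE; limma adjusted p of 0.0914 and 0.101). The d/d and f/f arrays of both genes did not overlap. Of 11 cathepsins and cystatins 5 were below 0 (median 0.05), with cathepsin C, Ctsc, at 0.60 ± 0.14 (SE; limma adjusted p = 0.110) and cystatin B, Cstb, at 0.24.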

How the data were processed

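Values in the authors' deposited table are linear intensities, 1 for each probe set on each array. The submitters' processing notes name RMA and give neither a version nor settings. RMA shares 1 distribution among arrays and compresses differences at the dim end. Because the planned tests need a log scale, log2 of each deposited intensity was taken with no added constant. No column was left out. The platform annotation gave 1 gene symbol to 31562 of 41420 probe sets, several to 830 and none to 9028, and the probe set of highest mean over the 6 arrays stood for a gene. Genotypes were set against each other by limma 3.58.1 (lmFit, then eBayes; 2-sided, no covariate) under R 4.3.3, with Benjamini-Hochberg adjustment over 16813 genes and a threshold of 0.05. Differences are d/d minus f/f, and confidence intervals are at 95%. The number of arrays limits the precision, and the labels do not say whether arrays came from separate animals, so p-values reflect only how far these samples spread, possibly for technical reasons.

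The members, roles, gene lists and named genes were chosen with earlier results of these data known. Named were members that passed, 12 preset members (Mmp11, also preset, is not analysed here), the 8 largest rises and 8 largest falls above 2.69 (only 7 rises were above 0, so Adamtsl3 came in below 0), and per list the genes that passed and the 2 of smallest p. Mmp17, Mmp19, Adam1b, Adam15, Adam22, Adam23, Adam25, Adam33, Adamts5, Adamts7, Adamts12, Adamts15, Adamtsl1, Adamtsl2, Adamtsl4, Reck, Dcn, Fn1, Vwf, Lep, Krt7, Epcam, Cldn3, the cluster genes other than Mmp7 and the synapsins fall outside that rule and were named with their values known. Promoter sequences are RefSeq's, of GRCm38.p6; the build behind the array's probes is not given in the sources used here. The fit was tested on simulated data.

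Alternatives tried were array weights, median centring, repeated quantile normalization, the replicate number as a block, a robust variance with an intensity trend, a filter on the dimmest 40% of probe sets, another on the suffix _x_at, the mean of a gene's probe sets, all probe sets in place of genes, an adjusted p under 0.10, and each array left out in turn.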

Additional observations from a re-analysis of the deposited data

How the results depend on the processing

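Of the 25 named members, 23 kept their direction in every setting run. The exceptions were Adamts16, which gave -0.018 with the mean of its probe sets and -0.051 to 0.12 with 1 array left out, and Adamtsl3, at -0.16 to 0.040 with 1 array left out; neither passed in any setting. Both have differences smaller than their SE.

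Arrays with the same replicate number were treated as unpaired. Their deviations from the group means had correlations of 0.461, 0.0228 and 0.178, and the second is under 0.1. Arrays with different numbers had -0.358 to 0.299, so 0.461, for d/d 1 and f/f 1, was the highest. These values do not settle whether the arrays are paired. With the replicate block 2 members passed, Adam11 and Adam12 (-0.59, adjusted p = 0.0310), with 457 of all genes, 3 related genes and 9 markers. The main counts were 1 member, 192 of all genes, 0 related genes (21 at an unadjusted limma p under 0.05) and 3 markers. An intensity trend with robust variance gave 8 markers. Array weights gave 381 of all genes, 1 related gene and 12 markers, and an adjusted p under 0.10 gave 403, 1 and 12. The mean of a gene's probe sets and the fit over all probe sets each gave 0 members, with 9 genes and 17 probe sets at an unadjusted p under 0.05.

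With each array left out in turn the counts ranged from 0 to 3 for members, 26 to 821 for all genes, 0 to 8 for related genes and 0 to 17 for markers, each highest without d/d 1. The counts of 0 members came without d/d 2, d/d 3, f/f 1, f/f 2 or f/f 3, where 9 to 14 members had an unadjusted limma p under 0.05. Each of these fits had fewer arrays and also lacked a particular array, and the parts of the 2 in these counts cannot be told apart. The cause of the other shifts was not tested. Levels near 2.69 limit what the dim members can show.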

Other observations

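Dimmer probe sets of several members gave values that the brightest did not show. A probe set of Adamtsl1 at 2.75 in d/d and 3.12 in f/f had a log2 difference of -0.37 with groups that did not overlap (limma adjusted p = 0.186 over all probe sets), while its brightest overlapped at -0.25. A probe set of Mmp16 at 4.78 in d/d and 4.46 in f/f gave 0.32 (limma adjusted p = 0.380 over all probe sets). Probe sets assigned to both Adam1a and its neighbour Mapkapk5, which were left out of the 62 genes, gave -0.28, -0.02, 0.11 and 0.12, and the 1 assigned to both Adam6a and Adam6b gave -0.12; none passed.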
